A study of Mus musculus with 2 samples.

Results

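The haemoglobin and erythroid genes described here are Hba-a1, Hba-a2, Hbb-b1, Hbb-b2, Alas2 and Slc4a1. They were taken as every array probe whose gene symbol in the deposited table was one of these 6 names. They are 6 of the 24288 gene symbols in that table. Each had 1 probe, printed as 1 spot, among 55681 probes in all, and these 6 probes were among the 37491 bright enough to be tested. The RNA was total RNA of isolated islets from C57BL/6J mice aged 8 weeks. Islets were taken on day 3 after surgery, in which either 60% of the pancreas was removed (pancreatectomy) or a sham operation was done. Each condition is 1 deposited sample run on 4 one-colour arrays, which gives 4 pancreatectomy arrays and 4 sham arrays. The header of the authors' deposited averages calls each an average of 4 samples. Neither it nor the labels say that the 4 arrays of a condition came from separate mice or islet preparations. The p-values therefore speak only of array-to-array spread, part of which may be technical. Replicate numbers follow the order of the deposited files, only name arrays and pair none. The description of the sham sample repeats 1 array position, and its 4 deposited files were used.

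Haemoglobin is the oxygen carrier of red blood cells, a tetramer of paired alpha and beta globin chains, each holding a haem group. Its chains are made in erythroblasts and in reticulocytes, the young red cells that still hold RNA, and Alas2 starts haem synthesis in the same cells, while Slc4a1 encodes band 3, the anion exchanger of the red cell membrane. Islets are densely supplied with blood vessels.

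The alpha globin genes Hba-a1 and Hba-a2 lie in 1 gene cluster on chromosome 11 and are near-identical copies. The adult beta globin genes lie on chromosome 7. C57BL/6J carries the haplotype whose copies are named Hbb-bs and Hbb-bt, and the array names 2 of its beta probes after Hbb-b1 and Hbb-b2, the copies of the other haplotype. The sequences just before the starts of the globin genes and of Alas2 are shown because their letters show how far the copies share their control region. They are 200 bases each, ending at the base before the transcript start, from RefSeq on GRCm38.p6, read 5′ to 3′ on the gene's strand. Capitals mark 4 short motifs searched on both strands. GATAA is the core bound by GATA factors and CACCC a core bound by Krüppel-like factors such as KLF1. The others are the CCAAT box and the TATA-like ATATAA.

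Hba-a1 (chr11:32283472-32283671, plus strand): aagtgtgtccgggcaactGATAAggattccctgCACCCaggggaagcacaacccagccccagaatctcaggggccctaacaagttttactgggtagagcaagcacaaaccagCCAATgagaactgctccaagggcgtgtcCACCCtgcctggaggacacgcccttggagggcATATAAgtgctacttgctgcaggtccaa
Hba-a2 (chr11:32296292-32296491, plus strand): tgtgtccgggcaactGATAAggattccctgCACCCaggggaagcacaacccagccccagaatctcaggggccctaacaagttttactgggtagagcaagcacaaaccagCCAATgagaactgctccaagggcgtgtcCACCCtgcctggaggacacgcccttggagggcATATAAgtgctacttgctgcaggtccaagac
Hbb-bs (chr7:103827929-103828128, minus strand): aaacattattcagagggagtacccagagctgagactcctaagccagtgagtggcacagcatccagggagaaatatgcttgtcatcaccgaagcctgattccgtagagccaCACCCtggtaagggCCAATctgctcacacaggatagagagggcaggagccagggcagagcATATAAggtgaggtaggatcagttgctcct
Hbb-bt (chr7:103813924-103814123, minus strand): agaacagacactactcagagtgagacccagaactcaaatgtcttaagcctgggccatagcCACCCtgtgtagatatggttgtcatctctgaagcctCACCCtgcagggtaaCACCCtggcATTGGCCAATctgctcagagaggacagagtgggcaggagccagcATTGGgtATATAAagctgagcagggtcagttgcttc
Alas2 (chrX:150547217-150547416, plus strand): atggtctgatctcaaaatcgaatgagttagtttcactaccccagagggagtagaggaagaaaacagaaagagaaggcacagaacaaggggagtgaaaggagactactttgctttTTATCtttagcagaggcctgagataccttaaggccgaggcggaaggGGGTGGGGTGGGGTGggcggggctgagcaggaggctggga

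The Hba-a1 and Hba-a2 windows are the same stretch shifted by a few bases. In windows of 300 bases around the 2 starts, the copies shared an unbroken run of 297 bases. Each alpha globin window held all 4 motifs, with GATAA 182 and 185 bases, CCAAT 88 and 91 bases and ATATAA 28 and 31 bases before the start of Hba-a1 and of Hba-a2, counted to the first letter of the match. Of 32851 windows of this length in the same set, 72 (0.219%) held all 4 motifs, while 18.1% held GATAA, 45.5% CACCC, 29.3% CCAAT and 7.30% ATATAA. The Hbb-bs window held CACCC at 90 bases, CCAAT at 76 bases and ATATAA at 30 bases before the start. The Hbb-bt window held 3 matches to CACCC and 3 to CCAAT, of which 2 read ATTGG on the printed strand and 1 abuts the forward CCAAT, and it held ATATAA 29 bases before the start. Alas2 held GATAA on the opposite strand 86 bases before the start and 3 abutting matches to CACCC on the opposite strand, and neither CCAAT nor ATATAA. A match is a description of the letters, and no match says only that these letters are not in this window.

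Some arrays held transcripts of other tissues, in both conditions. All 8 islet markers fixed for this check, such as Ins2, were well above background on all 8 arrays. Albumin (Alb), a plasma protein made by liver, stood at a normalized log2 signal (log2 of the processed spot signal, with all arrays set to a common 75th percentile) of 14.89 and 12.61 on pancreatectomy replicates 1 and 4 and 13.79 on sham replicate 4, and at 2.11 to 4.89 on each remaining array. The B-cell receptor gene Cd79b stood at 12.85 on pancreatectomy replicate 3, where the remaining 7 arrays read 3.28 to 6.08, and the mean of the gut epithelium markers was also highest there, 2.93 log2 units above the sham mean. The arrays also differed in brightness, with a 75th percentile of processed signal of 636, 279, 522 and 376 on pancreatectomy replicates 1 to 4, and 554, 542, 177 and 653 on sham replicates 1 to 4. All 8 arrays shared 1 slide on which the 2 conditions occupied different columns, so slide position across the columns and surgery cannot be told apart, while each of the 2 slide rows held both conditions.

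After pancreatectomy, all 4 adult globin probes and the Alas2 probe had a higher mean than after sham surgery, by 1.65 to 2.12 times, and the Slc4a1 probe had a lower mean. None of the 6 members passed an adjusted p of 0.05 in the limma test across all 37491 probes, where 226 probes (0.603%) passed in either direction. At an unadjusted p under 0.05, 4 of the 6 members were higher after pancreatectomy, against 4.18% of all tested probes. For 3 of the 6, every pancreatectomy array lay above every sham array, against 2.9% of all tested probes. Probes of related globin copies may bind the same RNA, so the members in these counts are not independent. The median log2 difference of the 6 members was 0.79, against -0.04 over all tested probes, and 5.08% of all tested probes had a difference as high as that of Hba-a1, the lowest of the 4 globin probes. Which cells held the globin RNA was not tested. In RNA of whole islet preparations, a difference in the number of such cells and one in globin RNA per cell cannot be told apart.

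**Figure D1:**
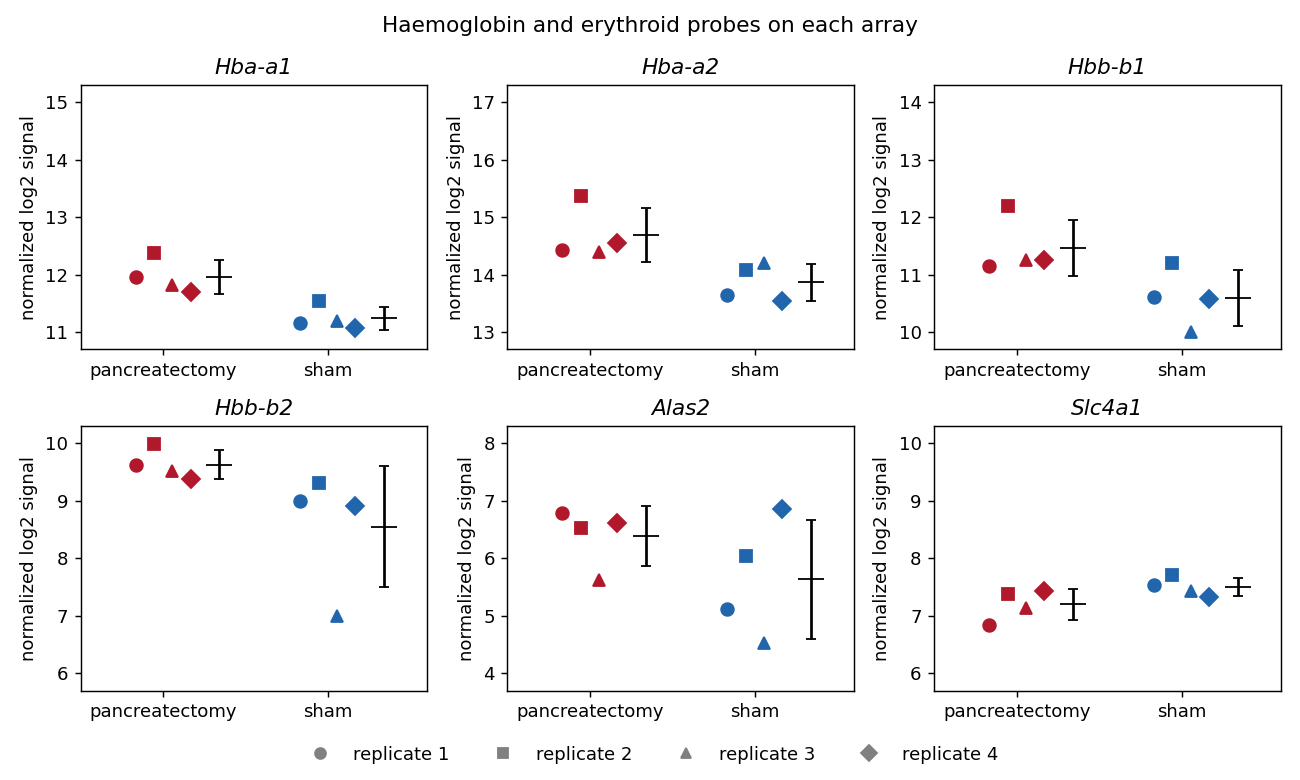
Normalized log2 signal of the 6 member probes, with 1 point per array, pancreatectomy left of sham, and the mean ± SD of 4 arrays as a bar; each panel spans the same number of log2 units at its own level. Pancreatectomy replicate 2 was the highest of the 8 arrays for all 4 globin probes, reaching 15.38 for Hba-a2, while Slc4a1 ran from 6.84 to 7.44 after pancreatectomy and from 7.33 to 7.71 after sham surgery.

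Hba-a1 encodes an adult alpha globin chain. Its probe lies at chr11:32183955-32184014 on the plus strand of mm9, the build of the deposited positions. The normalized log2 signal was 11.96, 12.38, 11.82 and 11.69 on pancreatectomy replicates 1 to 4, and 11.15, 11.54, 11.20 and 11.08 on sham replicates 1 to 4. Replicate 2 was the highest array in each condition, and the lowest pancreatectomy array lay above the highest sham array. The means were 11.96 ± 0.30 after pancreatectomy and 11.24 ± 0.20 after sham surgery (SD, n = 4 arrays each). The log2 difference was 0.72 ± 0.19 (SE), a 1.65-fold higher signal, with a 95% interval of 0.29 to 1.15 and an adjusted p of 0.210 in limma (unadjusted p = 0.00434).

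Hba-a2 encodes an adult alpha globin chain from the other copy, and its probe lies at chr11:32197245-32197304 on the plus strand of mm9. The 4 pancreatectomy arrays read 14.43, 15.38, 14.40 and 14.56, and the 4 sham arrays read 13.65, 14.09, 14.20 and 13.54 (normalized log2 signal). Pancreatectomy replicate 2 stood apart from the other 3, and the conditions did not overlap, with 14.40 after pancreatectomy next to 14.20 after sham surgery. The means were 14.69 ± 0.46 after pancreatectomy and 13.87 ± 0.32 after sham surgery (SD, n = 4 arrays each). The log2 difference was 0.82 ± 0.26 (SE; 95% interval 0.23 to 1.41), a 1.77-fold higher signal with an adjusted p of 0.305 in limma (unadjusted p = 0.0118). The probes of near-identical copies may each bind RNA of both genes, so the alpha globin probes are not independent readings.

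Hbb-b1 is an adult beta globin chain gene, and its probe lies at chr7:110961105-110961164 on the minus strand of mm9. RefSeq on GRCm38 assigns the accession given for this probe to Hbb-bt, one of the copies that C57BL/6J carries. The normalized log2 signal was 11.15, 12.20, 11.26 and 11.26 on pancreatectomy replicates 1 to 4, and 10.62, 11.20, 10.002 and 10.57 on sham replicates 1 to 4. Replicate 2 was again the highest array of each condition, and the conditions overlapped, since pancreatectomy replicate 1 lay just below sham replicate 2. The means were 11.47 ± 0.49 after pancreatectomy and 10.60 ± 0.49 after sham surgery (SD, n = 4 arrays each). The log2 difference of 0.87 ± 0.31 (SE; 95% interval 0.17 to 1.57), or 1.83-fold, had an adjusted p of 0.363 in limma (unadjusted p = 0.0201).

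Hbb-b2 is the second adult beta globin gene by the array's naming, and the deposited table gives no position for its probe. It read 9.63, 9.98, 9.53 and 9.38 on the pancreatectomy arrays, and 8.99, 9.31, 6.99 and 8.91 on the sham arrays (normalized log2 signal). Sham replicate 3, the dimmest array of the slide, lay far below the other 7, and the conditions did not overlap. The means were 9.63 ± 0.26 after pancreatectomy and 8.55 ± 1.05 after sham surgery (SD, n = 4 arrays each). The log2 difference was 1.08 ± 0.46 (SE; 95% interval 0.03 to 2.13), or 2.12-fold, with an adjusted p of 0.442 in limma (unadjusted p = 0.0445). Without sham replicate 3 the log2 difference of Hbb-b2 was 0.56, still with every pancreatectomy array above every remaining sham array.

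The probe for Hbb-bs, which the array gives under the older name Beta-s, adds a reading of a beta globin copy of this strain. Its normalized log2 signal was 8.13, 8.18, 8.08 and 7.79 on the pancreatectomy arrays and 7.25, 7.88, 6.19 and 7.21 on the sham arrays. The lowest pancreatectomy array lay just below the highest sham array, and sham replicate 3 was again the lowest. The log2 difference was 0.91 ± 0.32 (SE; 95% interval 0.19 to 1.64), with an adjusted p of 0.357 in limma (unadjusted p = 0.0190), and it was 0.60 without sham replicate 3 and 0.49 with the normexp background correction. This probe is not one of the 6 members, and it may bind RNA of other beta globin copies, so it is not an independent reading.

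Alas2 encodes the erythroid form of 5-aminolevulinate synthase, the enzyme that starts haem synthesis in red cell precursors. Its probe lies at chrX:147004993-147005052 on the plus strand of mm9 and was well above background on 7 of the 8 arrays, the exception being a sham array. The pancreatectomy arrays read 6.79, 6.52, 5.63 and 6.61, and the sham arrays read 5.12, 6.04, 4.52 and 6.87 (normalized log2 signal). The highest of all 8 arrays was sham replicate 4 and the conditions overlapped over most of their range. The means were 6.39 ± 0.52 after pancreatectomy and 5.64 ± 1.03 after sham surgery (SD, n = 4 arrays each). The log2 difference was 0.75 ± 0.49 (SE), with a 95% interval of -0.36 to 1.86 and an adjusted p of 0.608 in limma, so neither no difference nor one as large as that of the globins could be told from these arrays.

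Slc4a1, the band 3 anion exchanger that anchors the red cell cytoskeleton, was the member with a lower mean after pancreatectomy. Its probe lies at chr11:102210256-102210315 on the minus strand of mm9. The normalized log2 signal was 6.84, 7.39, 7.14 and 7.44 on pancreatectomy replicates 1 to 4, and 7.54, 7.71, 7.43 and 7.33 on sham replicates 1 to 4. Pancreatectomy replicates 1 and 3 lay below all 4 sham arrays and replicates 2 and 4 lay among them. The means were 7.20 ± 0.27 after pancreatectomy and 7.50 ± 0.16 after sham surgery (SD, n = 4 arrays each). The log2 difference was -0.30 ± 0.18 (SE; 95% interval -0.70 to 0.10), with an adjusted p of 0.572 in limma.

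**Figure D2:**
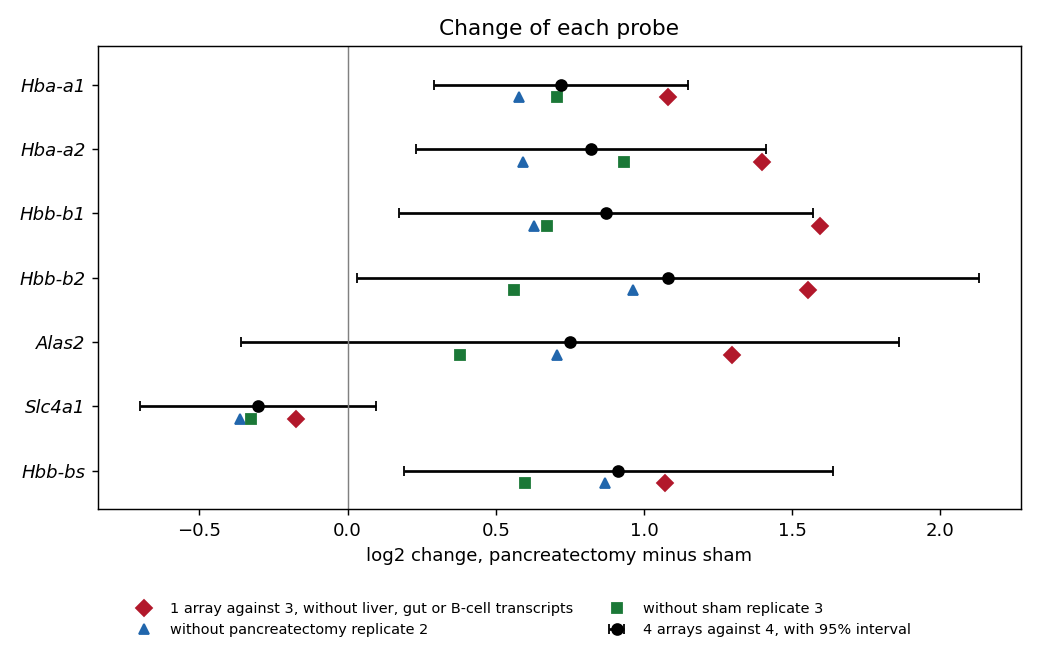
Log2 difference, pancreatectomy minus sham, of the 6 member probes and of the Hbb-bs probe, with the 95% interval from 4 arrays against 4, and the same difference without pancreatectomy replicate 2, without sham replicate 3, and with pancreatectomy replicate 2 alone against sham replicates 1 to 3. Without pancreatectomy replicate 2, Hba-a2 was at 0.59 in place of 0.82, and against sham replicates 1 to 3 that array alone gave 1.40.

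Pancreatectomy replicate 2 had the highest reading of each globin probe, and sham replicate 3 the lowest of both beta globin probes. Averaged over the 4 globin probes, the arrays lay 0.72, 1.42, 0.69 and 0.66 log2 units above the sham mean on pancreatectomy replicates 1 to 4, and 0.04, 0.47, -0.47 and -0.04 from it on sham replicates 1 to 4. Each pancreatectomy array lay above each sham array on this average, with replicate 3 at 0.69 and replicate 4 at 0.66 against sham replicate 2 at 0.47. Without pancreatectomy replicate 2, the log2 differences were 0.58 for Hba-a1, 0.59 for Hba-a2, 0.63 for Hbb-b1 and 0.96 for Hbb-b2. At an unadjusted p under 0.05, 3 of the 6 members were then higher, against 4.62% of all probes in that fit, and none passed the adjusted p of 0.05 in limma. Without sham replicate 3, the log2 differences were 0.70 for Hba-a1, 0.93 for Hba-a2, 0.67 for Hbb-b1 and 0.56 for Hbb-b2.

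Within slide row 1, which held replicates 1 and 2 of both conditions, the log2 differences were 0.82 for Hba-a1, 1.03 for Hba-a2, 0.77 for Hbb-b1 and 0.65 for Hbb-b2. Within slide row 2, which held replicates 3 and 4, they were 0.61, 0.61, 0.98 and 1.51 in the same order, so the direction was shared by both rows for all 4 globin probes. Alas2 differed by 1.08 in row 1 and by 0.42 in row 2, and Slc4a1 by -0.51 and -0.09. The authors' deposited table, which holds 1 normalized log2 average per condition, gave differences of 0.73 for Hba-a1, 0.83 for Hba-a2, 0.88 for Hbb-b1, 1.09 for Hbb-b2, 0.76 for Alas2 and -0.29 for Slc4a1.

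The array with the highest globin signal was not one of those with liver, gut or B-cell transcripts. On pancreatectomy replicate 2 the liver markers averaged 1.87 log2 units below the sham mean, against 6.09 above it on pancreatectomy replicate 1, 4.98 above on pancreatectomy replicate 4 and 6.01 above on sham replicate 4. On the same array the platelet and megakaryocyte markers lay at -0.16, the neutrophil markers at 0.07, the macrophage markers at -0.27 and the fibroblast markers at -0.01 from the sham mean. Those other blood and stromal lists stood higher on pancreatectomy replicates 1 and 3, where platelet markers lay at 1.00 and 0.56, neutrophil markers at 1.56 and 1.48, macrophage markers at 1.58 and 1.19 and fibroblast markers at 3.02 and 2.39. The platelet gene Pf4 read 12.46, 6.10, 11.31 and 6.96 on pancreatectomy replicates 1 to 4, and 5.84 to 6.41 on the sham arrays. The platelet mean on pancreatectomy replicates 1 and 3 rests largely on this gene. Of the 6 tested genes of that list, 3 had a positive and 3 a negative log2 difference, with a median of -0.04. With pancreatectomy replicate 2 alone set against sham replicates 1 to 3, which leaves out every array with liver, gut or B-cell transcripts, the log2 differences were 1.08 for Hba-a1, 1.40 for Hba-a2, 1.59 for Hbb-b1, 1.55 for Hbb-b2, 1.30 for Alas2 and -0.17 for Slc4a1. The array kept was the one with the highest reading of each globin probe, so the size of these globin differences depends on which array was left. That fit also assumes that the lone array varies like the sham arrays.

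Of 70 tested genes in the marker lists of 10 cell types, none passed an adjusted p of 0.05 in limma, and at an unadjusted p under 0.05 7 were higher and 3 lower after pancreatectomy, against 4.18% higher and 6.8% lower over all tested probes. All 8 islet markers had a negative log2 difference (median -0.15). Of these, the beta cell transcription factors Pdx1, lower on every pancreatectomy array, and Nkx6-1 differed by -0.51 ± 0.15 and -0.66 ± 0.21 (SE; adjusted p = 0.255 and 0.301 in limma, and 0.0380 and 0.0105 with array weights). All 7 fibroblast markers had a positive difference (median 1.32), as had all 9 tested liver markers (median 1.77). The summed level of the platelet and megakaryocyte list (6 of 8 genes tested) ran from 8.46 to 12.58 on the log2 scale over the pancreatectomy arrays and from 8.51 to 8.98 over the sham arrays. Its highest value was close to that of Pf4 alone, 12.46. In the neutrophil list (6 of 9 genes tested), the abundant neutrophil gene S100a8 read 7.97, 4.41, 7.16 and 5.16 after pancreatectomy and 2.34, 5.19, 3.09 and 3.80 after sham surgery, a difference of 2.57 ± 0.86 (SE; adjusted p = 0.334 in limma). Its partner S100a9 read 9.07, 5.85, 8.66 and 6.98 after pancreatectomy and 4.87, 6.83, 4.39 and 5.84 after sham surgery. Both were highest on pancreatectomy replicates 1 and 3 and overlapped between the conditions. The summed level of that list ran from 12.53 to 13.00 after pancreatectomy and from 11.90 to 14.12 after sham surgery, close to the level of its gene Elane alone, from 12.47 to 12.82 and from 11.82 to 14.11. In the macrophage list, Folr2, a folate receptor of tissue macrophages, read 9.03, 8.69, 8.60 and 8.41 after pancreatectomy and 7.56, 7.68, 7.13 and 7.81 after sham surgery. It was higher on every pancreatectomy array, by 1.13 ± 0.20 (log2 difference ± SE; adjusted p = 0.0513 in limma, 0.0102 with array weights). For Folr2, Pdx1 and Nkx6-1 alike, the fit with array weights passed 1428 of all 37491 tested probes, against 226 without weights. The summed level of the macrophage list (all 8 genes tested) ran from 13.29 to 14.44 after pancreatectomy and from 13.66 to 13.85 after sham surgery. Of its genes, 7 had a positive and 1 a negative log2 difference, with a median of 0.70. In the neutrophil list 1 gene was above background on no array, and in the other 2 lists none was. Pancreatectomy replicate 2 and sham replicate 3, the extremes of several globin readings, were also the dimmest array of their condition, and the part of array brightness in the globin differences was not tested.

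**Figure D3:**
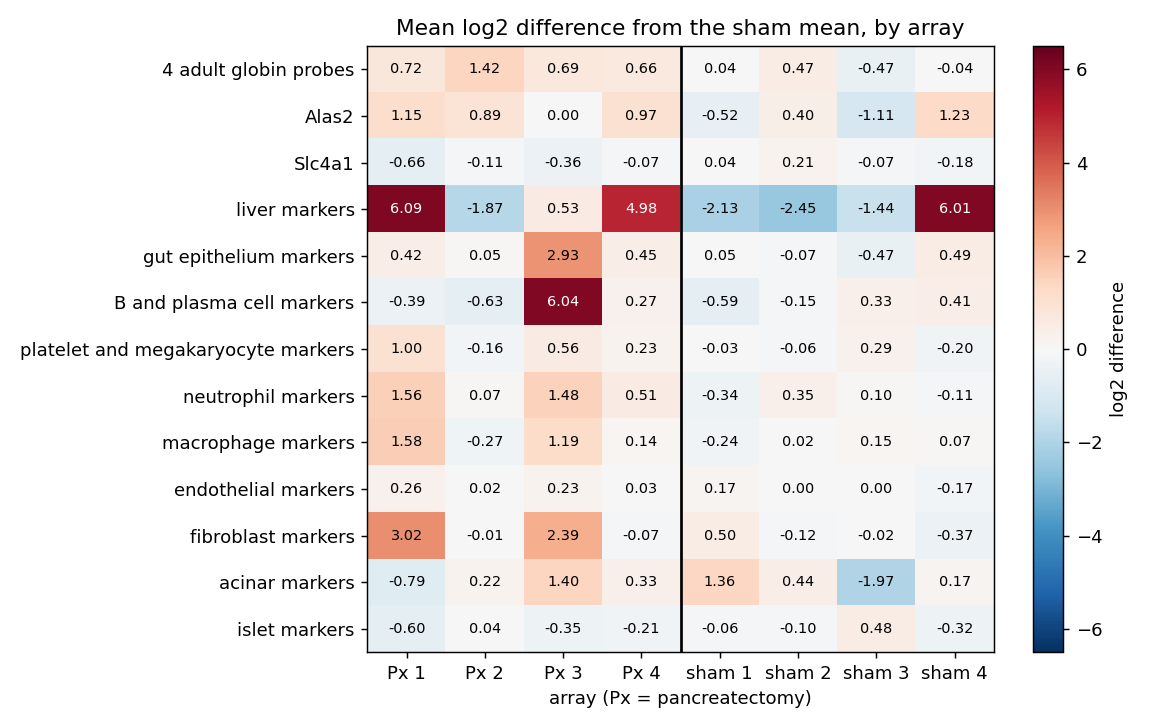
Mean log2 difference of each array from the mean of the 4 sham arrays, for the 4 globin probes, Alas2, Slc4a1 and the marker lists of 10 cell types, with pancreatectomy (Px) arrays left and sham arrays right. The globin row peaks at 1.42 on Px 2, the liver row at 6.09 on Px 1, 4.98 on Px 4 and 6.01 on sham 4, and the B and plasma cell row at 6.04 on Px 3.

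The genes of the other lists were split evenly between higher and lower values, and none passed the test. Of 76 further genes in 7 lists covering globin chains, haem synthesis, the red cell membrane, erythroid regulators, iron, red cell enzymes and haem clearance, 75 had a probe and 61 were tested. None of the 61 passed an adjusted p of 0.05 in limma in either direction. Of these, 30 had a positive and 31 a negative log2 difference, with a median of -0.01, against -0.04 over all tested probes. At an unadjusted p under 0.05, 3 of the 61 were higher after pancreatectomy (Hbb-bs, Epor and Tal1), where 4.18% of all tested probes were, and 5 were lower (Ldb1, Sptb, Tmod1, Ube2o and Slc48a1), where 6.8% of all tested probes were. Counts this size are near those shares, and the values below describe the genes. Some listed genes read high on all 8 arrays, such as Fth1 (mean 16.13 after pancreatectomy and 16.19 after sham surgery). Others, such as Hp, followed liver RNA, so the median over these lists is not a reading of red cells alone.

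Defining genes of red cell precursors were near background. The probes for Gata1, the transcription factor that drives red cell formation, Rhag (the Rh-associated glycoprotein), Epb42 (protein 4.2), Kel (a blood group protein), Trim10, Sox6, Ahsp (the chaperone of free alpha globin), the globin genes Hba-x and Hbq1a, and Cd163, the macrophage receptor for haemoglobin bound to haptoglobin, were well above background on none of the 8 arrays. Klf1, the erythroid Krüppel-like factor, was well above background on all 8 arrays.

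Among the globin chains and their chaperone, 4 of 9 genes were tested, 3 had a positive difference and the median was 0.32. Besides Hbb-bs, Hbb-bh1, an embryonic beta-like globin gene, read 5.53, 6.27, 6.69 and 5.83 after pancreatectomy and 5.80, 5.66, 4.50 and 5.88 after sham surgery (normalized log2 signal). The conditions overlapped, and the log2 difference was 0.62 ± 0.36 (SE; adjusted p = 0.570 in limma). It was 0.30 without sham replicate 3 and 0.18 with the normexp background correction.

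The enzymes and carriers of haem synthesis gave a median log2 difference of -0.05, with 5 of 12 genes positive and 7 negative. Uros, which closes the ring of the haem precursor, lay lower on every pancreatectomy array, at 11.46, 11.83, 11.62 and 11.87, than on any sham array, at 12.01, 11.92, 12.04 and 11.88. The difference was small, -0.27 ± 0.14 (SE; adjusted p = 0.540 in limma). Slc25a38, the mitochondrial glycine carrier that feeds the Alas2 reaction, differed by -0.31 ± 0.23 (-0.14 without sham replicate 3), and Urod, the next enzyme after Uros, by -0.03 ± 0.22, a value whose sign turned under several other settings.

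In the red cell membrane and cytoskeleton list, 12 of 18 genes were tested, 5 positive and 7 negative, with a median of -0.16. Sptb, the beta chain of the spectrin lattice under the membrane, read 5.48, 5.96, 5.62 and 5.67 after pancreatectomy and 6.24, 6.31, 6.47 and 6.12 after sham surgery, and Tmod1, which caps the actin filaments of that lattice, read 8.13, 8.07, 7.94 and 8.11 after pancreatectomy and 8.73, 8.73, 8.55 and 8.39 after sham surgery. Both were lower on every pancreatectomy array, with log2 differences of -0.60 ± 0.16 and -0.54 ± 0.14 (SE), each at an adjusted p of 0.200 in limma. With array weights, which give less influence to the more deviant arrays, they passed in limma, at adjusted p = 0.0266 for Sptb and 0.0430 for Tmod1. That fit passed 1428 of all 37491 tested probes, against 226 without weights. Gypc (glycophorin C) differed by 0.65 ± 0.37 and was highest on pancreatectomy replicates 1 and 3, at 8.78 and 8.96, against 7.46 and 7.49 on replicates 2 and 4 and 7.24 to 7.95 after sham surgery. Dmtn (dematin) differed by 0.72 ± 0.47 with sham replicate 3 low at 8.88. Without that array the difference was 0.17, and a second Dmtn probe gave -0.01. Epb41 (protein 4.1) differed by -0.23 ± 0.30, and its other probes by -0.11 to 0.34.

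Of the erythroid regulators, 8 of 11 genes were tested, 5 positive and 3 negative, with a median of 0.12. Epor, the erythropoietin receptor, read 5.79, 5.97, 6.59 and 5.87 after pancreatectomy and 5.42, 5.55, 5.56 and 5.53 after sham surgery. Every pancreatectomy array lay above every sham array, with a log2 difference of 0.54 ± 0.19 (SE; adjusted p = 0.368 in limma), or 0.28 with the normexp background correction. Tal1, a transcription factor of blood and vessel precursors, was also higher on every pancreatectomy array, by 0.37 ± 0.15 (adjusted p = 0.420). Ldb1, which bridges the GATA1 and TAL1 complex in red cell precursors and is also expressed in islets, read 9.87, 9.57, 9.88 and 9.49 after pancreatectomy and 10.23, 10.48, 10.69 and 10.36 after sham surgery. Its log2 difference of -0.74 ± 0.16 (SE) had the lowest adjusted p of these 61 genes, 0.131 in limma. It passed with array weights at -0.63 (adjusted p = 0.0311 in limma), a fit in which 1428 of all 37491 tested probes passed.

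For iron uptake and storage the median of 7 genes was -0.06, with 3 positive and 4 negative. Tfr2, a transferrin receptor of liver and red cell precursors, read 8.85 and 8.48 on pancreatectomy replicates 1 and 4 and 9.06 on sham replicate 4, the arrays with liver transcripts, and 4.63 to 5.36 on the other 5. Slc40a1, the iron exporter ferroportin, differed by 0.37 ± 0.22, and Ftl1, the ferritin light chain, whose probe may also bind near-identical copies, by -0.36 ± 0.20 (-0.17 without sham replicate 3).

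Among 12 red cell enzymes and reticulocyte maturation genes, 4 differences were positive and 8 negative, with a median of -0.11. Ube2o, a ubiquitin enzyme that clears proteins from reticulocytes, was lower on every pancreatectomy array, at 11.80, 11.67, 11.60 and 11.72, than on any sham array, at 12.07, 12.02, 12.43 and 12.08, with a log2 difference of -0.45 ± 0.14 (SE; adjusted p = 0.316 in limma). Car2, a carbonic anhydrase, read 8.72 on pancreatectomy replicate 3, the array with gut and B-cell transcripts, and 3.28 to 4.67 on the other 7. Prdx2, a peroxidase abundant in red cells, differed by -0.12 ± 0.20.

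In the haemoglobin and haem clearance list, 5 of 6 tested genes were positive, with a median of 0.18. Hp, haptoglobin, the plasma protein from liver that binds free haemoglobin, read 13.60, 4.56, 10.07 and 13.61 after pancreatectomy and 4.37, 4.20, 4.58 and 13.60 after sham surgery. Hpx, haemopexin, which binds free haem, read 12.80, 3.86, 4.01 and 13.03 after pancreatectomy and 3.81, 4.08, 4.77 and 12.71 after sham surgery. Both were highest on the 3 arrays with the most liver RNA, whichever the surgery, and their log2 differences of 3.77 ± 2.59 and 2.08 ± 2.77 (SE) were within the spread. Slc48a1, a haem transporter of macrophages, was lower on every pancreatectomy array, by -0.34 ± 0.15 (log2 difference ± SE; adjusted p = 0.443 in limma).

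**Figure D4:**
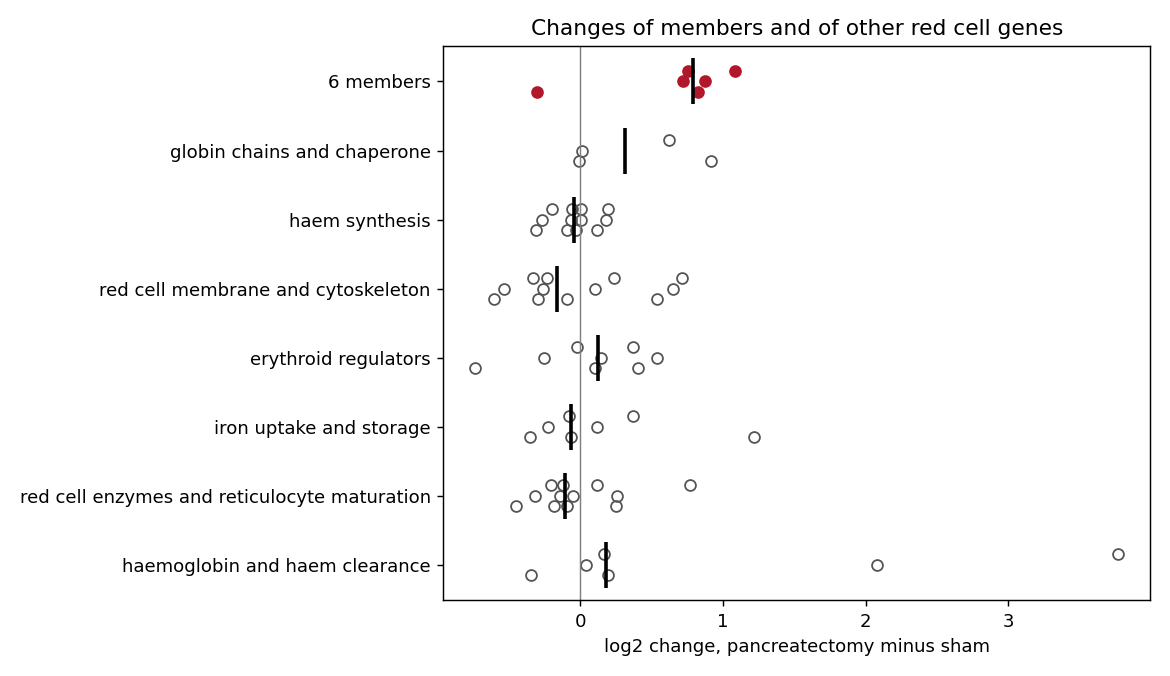
Log2 difference, pancreatectomy minus sham, of the 6 members (filled) and of the 61 tested genes of the 7 other lists (open), with the median of each group as a vertical bar. The members' median is 0.79, while the list medians run from -0.16 for the membrane and cytoskeleton to 0.32 for the globin chains and chaperone.

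The members also differed in how far they followed one another from array to array. Over the 8 arrays, the mean of the 4 globin probes correlated with Alas2 at Pearson r = 0.592 and with Slc4a1 at r = -0.251, and with its own parts at 0.808 for Hba-a2 to 0.988 for Hbb-b1. With each condition's mean removed, the values were 0.407 for Alas2 and 0.511 for Slc4a1. Hbb-bs, which is not in that mean, followed it at r = 0.903, and at 0.785 with condition means removed. Its probe and the beta globin probes in the mean may bind RNA of the same copies, so Hbb-bs is not an independent reading. These are descriptions over 8 arrays of 1 slide, which share brightness and scaling.

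Among 16134 other gene symbols, the 10 whose array pattern was most like the globin mean had r between 0.945 and 0.982. They were Rad21, a cohesin subunit (0.982), Aqp7, a water and glycerol channel (0.962), Mymk, a muscle cell fusion protein (0.958), Fat4, an atypical cadherin (0.958), Tas2r140, a bitter taste receptor (0.953), Ptchd1 (0.952), Unc93a2 (0.951), Ccdc169 (0.948), Palb2, a partner of BRCA2 in DNA repair (0.947), and Slc7a3, a cationic amino acid transporter (0.945). With condition means removed, their r ran from 0.840 to 0.949. All 10 were highest on pancreatectomy replicate 2. Rad21, for example, read 13.22, 13.58, 13.16 and 13.21 after pancreatectomy and 12.94, 12.97, 12.63 and 12.83 after sham surgery, with a log2 difference of 0.45 ± 0.15 (SE; adjusted p = 0.348 in limma). Palb2 had the largest difference of the 10, 1.48 ± 0.31 (SE; adjusted p = 0.110 in limma), which was 0.22 with the normexp background correction, and was well above background on 2 of 4 sham arrays. The list was chosen from these same 8 arrays by its likeness, so its differences are a description.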

How the data were processed

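The authors' deposited scanner files hold linear Cy3 intensity per spot. Per the file headers they were made with Feature Extraction 10.7.3.1, and the submitters' processing notes name 9.1. The processed signal is background-subtracted. Flags for spots well above background, saturated or outlying are from the same software, per the file headers. No spot was saturated. The authors' deposited table of log2 averages, 1 per condition, was, per its header, shifted to the 75th percentile in GeneSpring GX 12.5. Its column medians were 0.0033 for pancreatectomy and 0.0714 for sham. Its centring is not stated, and its differences followed the array values with a slope of 0.999 and Pearson r = 0.985 over 37491 probes.

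From the 8 array files, control spots and outlier spots were left out, spots of a probe were averaged, and log2 processed signals were shifted so that the 75th percentile of every array equalled the mean of the 8. A probe was tested if at least 4 of 8 arrays had it well above background, with at least 3 values per condition. The share of spots well above background ran from 60.0% to 72.2% on pancreatectomy arrays and from 49.3% to 71.6% on sham arrays, and the number of arrays limits the precision. The test was the two-sided moderated fit of limma (version 3.58.1, under R 4.3.3), with Benjamini-Hochberg adjustment over all 37491 tested probes and a threshold of 0.05. The code was tested on simulated data. Symbols were updated by Entrez ID to RefSeq GRCm38.p6. Of 33325 probes with a symbol 30994 matched, and 3525 symbols changed. Whether a probe lies in an exon was not analysed here. The normexp alternative, with an offset of 50, used the median spot signal.

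A list's genes were read by their brightest tested probe. Members, lists and tests were chosen with earlier results of these data known. Named were every member, per list the 2 largest differences and the brightest gene plus any gene past the threshold, and the 10 symbols most like the mean of the 4 globin probes over the arrays. Genes named for being above background on no array or for an unadjusted p under 0.05, and Klf1, Pf4, Alb, Cd79b, Elane and the named markers, were added after their values were seen. Other scalings, background corrections, filters, slide row settings, array weights, a variance trend and left-out arrays were tried as 21 alternatives.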

Additional observations from a re-analysis of the deposited data

Results flagged for a closer look

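In 15 of the groups of 4 arrays formed by the genes whose array values or differences are given here, 1 array stood apart from the other 3 by Dixon's 95% criterion. There were 94 such groups, and chance alone marks about 1 group in 20. In 7 of the 15 that array was pancreatectomy replicate 2, the array with the highest globin signal. On it Hba-a2 read 15.38 (next 14.56), Hbb-b1 12.20 (next 11.26), Rad21 13.58 (next 13.22), Aqp7 7.76 (next 7.26), Mymk 8.87 (next 8.30), Palb2 5.56 (next 4.43) and Slc7a3 8.09 (next 7.92), all in normalized log2 signal. The last 5 of these genes were chosen for following the globins over these arrays.

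Sham replicate 3, the dimmest array, read 4.50 for Hbb-bh1 (next 5.66), 8.88 for Dmtn (next 11.02), 6.27 for Unc93a2 (next 6.80) and 12.43 for Ube2o (next 12.08). Sham replicate 4, which carried liver transcripts, read 13.79 for Alb (next 4.89), 9.06 for Tfr2 (next 4.81), 13.60 for Hp (next 4.58) and 12.71 for Hpx (next 4.77).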

How the results depend on the processing

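No member passed the adjusted p of 0.05 under any of the 21 alternatives, and each kept its direction in all of them and in the authors' deposited table. The log2 difference ran from 0.56 to 1.08 for Hba-a1, 0.59 to 1.40 for Hba-a2, 0.43 to 1.59 for Hbb-b1, 0.49 to 1.55 for Hbb-b2, 0.12 to 1.30 for Alas2 and -0.51 to -0.09 for Slc4a1. The upper ends for the globin probes and Alas2 came from pancreatectomy replicate 2 alone against sham replicates 1 to 3. Alas2 had no value where all 8 arrays had to be above background. Array weights gave 0.56 for Hba-a1, 0.43 for Hbb-b1, 0.49 for Hbb-b2 and 0.12 for Alas2. With 1 array left out the ranges were 0.58 to 0.82, 0.59 to 0.93, 0.63 to 1.07, 0.56 to 1.33, 0.38 to 1.16 and -0.38 to -0.18, in the order given. The number of members higher at an unadjusted p under 0.05 was 0 without scaling (against 1.03% of all probes), 1 within row 2 (1.88%), 2 with array weights (8.01%), and 3 to 5 otherwise (2.22% to 4.62%). Slc4a1 was lower at an unadjusted p under 0.05 with median scaling and with array weights.

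Against 226 probes past the threshold in all (195 higher, 31 lower), there were 40 without scaling (40 and 0), 59 with normexp (53 and 6), 77 with no filter, 148 with all 8 arrays above background, 130 with slide row as a block, 1428 with array weights (641 and 787), and 66 to 198 with 1 array left out. There were 0 within row 1 (2490 at an unadjusted p under 0.05), within row 2 (1135) and without the 4 arrays with liver, gut or B-cell transcripts (2255). These 3 fits had fewer samples. Median scaling gave 143 higher and 53 lower, and put the median of all probes at -0.16. Of the 61 tested genes of the other lists, 3 passed with array weights, where 1428 of all 37491 tested probes passed, and 0 under each other alternative.

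The sign turned for Urod (0.016 with quantile scaling, 0.19 in row 1, 0.12 without the 4 arrays, and -0.18 to 0.15 with 1 array left out), Gypc (-0.16 without the 4 arrays), Epb41 (0.062 in row 1, and -0.38 to 0.068 with 1 array left out), Car2 (-0.37 in row 1, -1.09 without the 4 arrays, and -0.46 to 1.35 with 1 array left out), Prdx2 (0.18 in row 2, and -0.29 to 0.012 with 1 array left out) and Hpx (-0.23 in row 2, -0.36 without the 4 arrays). The cause was not tested. No paired analysis was possible because the labels give the conditions no shared replicate numbers, and those used here are file order. Slide row as a block changed no member's call.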
